A study of Rattus norvegicus with 20 samples.

Results

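The antioxidant and glutathione genes are the enzymes that remove superoxide and peroxides, the enzymes that make, recycle and use glutathione, and the NRF2 pathway that controls many of them. Members were chosen by the gene name on the array: glutathione peroxidases (Gpx), peroxiredoxins (Prdx), glutathione S-transferases (Gst), superoxide dismutases (Sod), Gclc and Gclm, and the single genes Gsr, Gss, Cat, Nqo1, Hmox1, Hmox2, Nfe2l2, Keap1, Srxn1 and Msra. This gave 50 genes with 56 probes among 30367 probes, and each gene was read by its brightest probe. Of the 50 genes 36 were well above background on at least 4 of the 20 arrays and were tested, among 15243 genes tested in all.

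Whole blood of Wistar rats was measured on 20 arrays of 1 colour (Cy3), 4 in each of 5 groups. The labels number the replicates without saying that each is a separate rat, so p-values measure the spread between these samples. Omeprazole rats had surgically induced reflux esophagitis and received omeprazole, a proton pump inhibitor, at 30 mg/kg. The STW5 rats had the same operation and received STW5, a preparation of medicinal plant extracts, at 2 ml/kg or at 0.5 ml/kg. Untreated rats had the operation alone, and sham rats had a sham operation without reflux. Treatment was given for 7 days before surgery and 10 days after it. The labels give neither age nor sex. Titles and design text number the STW5 doses in opposite order, and in the authors' deposited value table the 8 STW5 columns follow the array of the other dose. The titles were followed here, so every statement on a single STW5 dose rests on them. Sham and untreated arrays shared slide 1 and both STW5 doses slide 2, while omeprazole had slide 3 to itself. For comparisons across slides, slide and treatment cannot be told apart.

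Glutathione is a small thiol that glutathione peroxidases use to reduce hydrogen peroxide and lipid peroxides. Glutathione reductase restores it with NADPH. Glutathione S-transferases attach it to reactive compounds. NRF2, encoded by Nfe2l2, is held in the cytoplasm by KEAP1 and, when released, switches on many of these genes. Red cells carry oxygen and lack a nucleus, and they are known for large amounts of catalase, peroxiredoxin 2 and glutathione peroxidase 1. Neutrophils make superoxide to kill microbes.

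The sequences below are the array probes, 60 bases each as deposited, of the members on which most results turn, with the annotation of the rn4 build given in the scanner files, which name the gene but no exon. Gpx1 was read at chr16_random:1046407-1046466, Cat at chr3:88683063-88685007, Gsr at chr16:62257899-62258792 and Nfe2l2 at chr3:58367137-58367196. The rn4 spans of Cat and Gsr are longer than the probe. The promoter of Gpx1 lies on chr8 in the GRCr8 build, unlike its probe in rn4, and this difference was not tested. No base of these 4 probes is singled out.
Gpx1: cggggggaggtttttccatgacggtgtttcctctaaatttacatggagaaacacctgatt
Cat: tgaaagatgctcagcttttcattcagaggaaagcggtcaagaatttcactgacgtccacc
Gsr: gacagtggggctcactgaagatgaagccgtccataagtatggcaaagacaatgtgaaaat
Nfe2l2: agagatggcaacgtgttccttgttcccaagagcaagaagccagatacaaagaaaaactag

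Gstm4 had 2 usable probes that gave different answers, so both are shown. The brighter lies at chr2:203606412-203606471 and the dimmer at chr2:203606356-203606415, with coordinates that run downwards along both probes, so on the minus strand of rn4. Capitals mark the 4 bases they share.
Gstm4 brighter probe: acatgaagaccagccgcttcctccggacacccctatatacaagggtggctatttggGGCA
Gstm4 dimmer probe: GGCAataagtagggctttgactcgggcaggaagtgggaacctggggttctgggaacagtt

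NRF2 binds antioxidant response elements, and the core TGACNNNGC was searched for on both strands of each promoter (250 bases before to 50 after the start, RefSeq, GRCr8). Of the 46 promoters of members 15 (32.6%) held it, against 12.1% of all 33469 promoters. A match is a match of letters, not a bound site. The promoters of Prdx5 (chr1:213531978-213532277) and Nfe2l2 (chr3:81028950-81029249) are shown, both read on the minus strand. The levels of these genes followed the neutrophil markers, and their promoters held a match. Srxn1, which also followed those markers, had no match in its promoter. Prdx6, another such gene, was not among the 46 promoters. Matches also stood in promoters of Gstm5, Gstm7, Prdx1 and Hmox2, whose levels followed the erythroid markers or, for Hmox2, ran against them. Gstp1, Sod2, Gstz1 and Prdx4, whose levels had no called relation to either set of markers, had matches too. No match was found for Gpx1 and Cat among the former, or for Gss and Keap1 among the latter. Whether matches go with either set of markers was not tested. In the promoters shown, capitals mark the match.
Prdx5 promoter: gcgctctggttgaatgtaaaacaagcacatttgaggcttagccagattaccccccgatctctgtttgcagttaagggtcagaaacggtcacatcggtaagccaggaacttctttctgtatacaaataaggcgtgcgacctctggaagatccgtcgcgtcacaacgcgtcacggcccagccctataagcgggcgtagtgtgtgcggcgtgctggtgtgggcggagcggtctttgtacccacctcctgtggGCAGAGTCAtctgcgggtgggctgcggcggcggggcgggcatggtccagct
Nfe2l2 promoter: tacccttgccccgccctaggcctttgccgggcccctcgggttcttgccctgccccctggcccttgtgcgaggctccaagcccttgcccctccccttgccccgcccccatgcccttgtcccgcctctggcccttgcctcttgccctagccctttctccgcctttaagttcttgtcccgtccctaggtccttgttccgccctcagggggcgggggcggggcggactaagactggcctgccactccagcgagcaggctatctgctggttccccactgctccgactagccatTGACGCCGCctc

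A level is the processed intensity divided by the 75th percentile of its own array, on a log2 scale, so 0 is that percentile and 1 unit a doubling, and a level is compared only between arrays for the same probe. The 75th percentile ranged from 71.4 to 307 intensity units with a median of 164, and 43.1% to 57.4% of probes were well above background. No spot was saturated. As a check of the labelled tissue, all 13 tested erythroid markers and all 13 tested neutrophil markers were well above background on all 20 arrays, as were 11 of 12 T cell, 5 of 10 B cell, 6 of 8 platelet and 9 of 11 monocyte markers. The number of arrays limits the precision.

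The untreated arrays differed among themselves. Untreated replicate 2 held liver transcripts: albumin (Alb) read 6.29 there, against at most -2.0 on the other 19 arrays, and fibrinogen beta (Fgb) 5.72, against at most -4.01. Ttr at 5.07, Serpina1 at 4.14 and Apoa1 at 2.73 were likewise above every other array, on which the highest values were -3.43, -2.26 and -3.73. This array also held the highest value of 11 of the 36 tested members: Hmox1, Prdx4, Gstk1, Gpx3, Gss, Srxn1, Sod3, Gstm1, Prdx5, Gstz1 and Prdx6. This array also stood apart in marker scores, each the mean over a cell type's markers of level minus the marker's mean. The neutrophil score was 1.99, against at most 0.95 on the other 19 arrays. The T cell score was -2.54 and the B cell score -2.18, against at least -0.72 for both on those arrays. Among the 11 genes, Srxn1, Prdx5 and Prdx6 followed the neutrophil markers. The parts of liver RNA and of blood cell types in these 11 values were not tested. Untreated replicate 1 was the most sham-like, with a mean correlation across genes of 0.984 with the sham arrays and of 0.920 with the other untreated arrays. Untreated replicate 3 held the lowest value of 17 members. Where a named change from or against the untreated group passed the threshold with 1 of these arrays left out, that is said with its result.

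**Figure D1:**
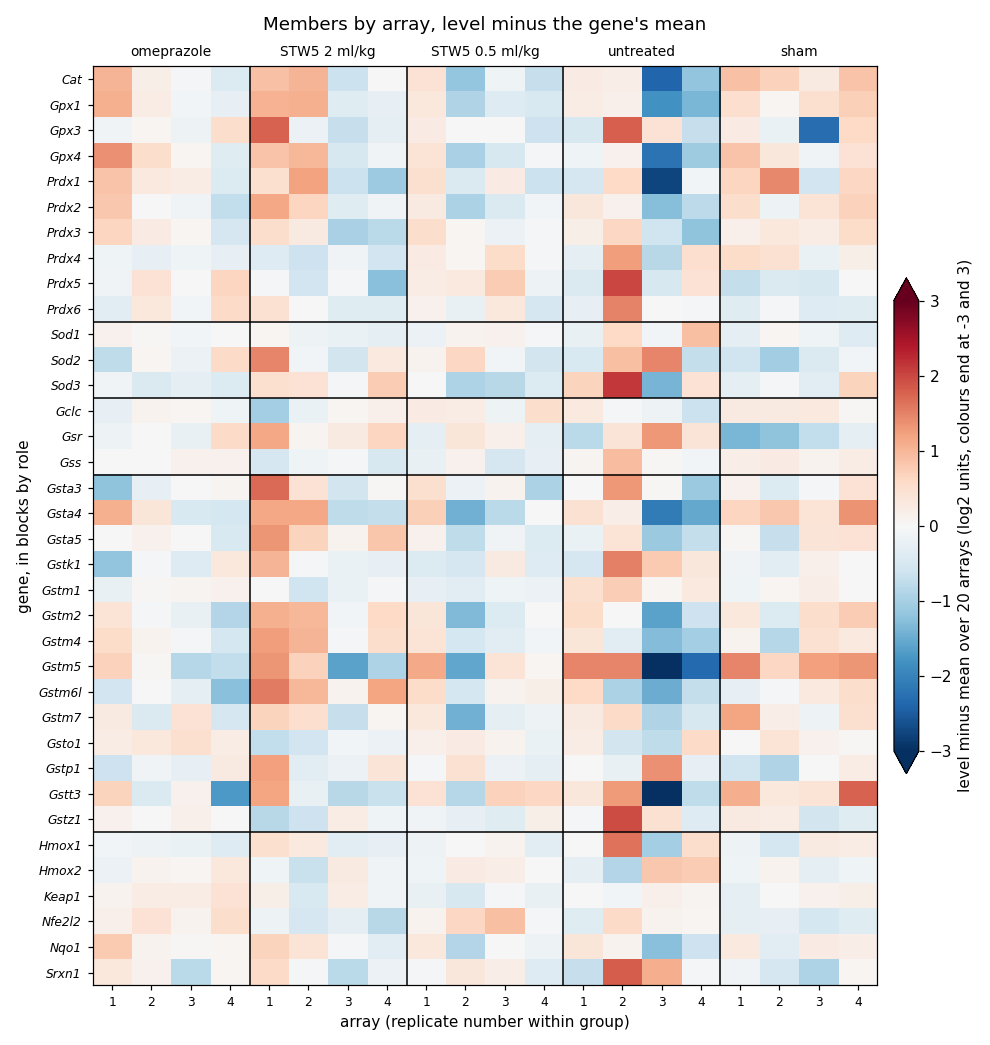
Heat map of the 36 tested members (rows, in blocks by role) on the 20 arrays (columns, by group), coloured by the distance of the level from the average of that gene in log2 units, with colours ending at -3 and 3. Untreated replicate 2 holds the highest value of 11 members and untreated replicate 3 the lowest value of 17.

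No member passed an adjusted p of 0.05 in any of the 8 comparisons. For untreated minus sham, 0 of 36 members passed, against 0.00656% of all genes. For omeprazole minus untreated, 0 members passed, against 4.17% of genes, and for omeprazole minus sham 0 members, against 4.72%. For both STW5 doses minus untreated, both doses minus sham, and 2 minus 0.5 ml/kg, 0 members passed, as did 0% of all genes. With an unadjusted p below 0.05, 11 of 36 members were counted for STW5 2 ml/kg minus untreated (23.8% of all genes), 7 for untreated minus sham (18.3%) and 5 for STW5 2 minus 0.5 ml/kg (26.5%). The same count was 3 for STW5 2 ml/kg minus sham (12.3%), and it was 2 each for omeprazole minus untreated (15.6%), STW5 0.5 ml/kg minus untreated (5.9%), omeprazole minus sham (14.3%) and STW5 0.5 ml/kg minus sham (11.5%).

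Members whose 4 values of one group all lay outside those of the other were few. There was 1 each for untreated minus sham (3.08% of all genes), STW5 0.5 ml/kg minus untreated (1.91%) and STW5 2 ml/kg minus untreated (4.01%), and 0 for omeprazole minus untreated (7.31%). There were 2 each for omeprazole minus sham (15.3%), STW5 0.5 ml/kg minus sham (10.3%) and STW5 2 minus 0.5 ml/kg (10.9%), and 3 for STW5 2 ml/kg minus sham (7.47%). The median log2 change of the 36 members was -0.03 for untreated minus sham, where that of all genes was -0.20. It was 0.08 for omeprazole minus untreated (all genes 0.11), 0.02 for STW5 0.5 ml/kg minus untreated (0.03) and -0.01 for STW5 2 ml/kg minus untreated (0.14). Against sham it was -0.13 for omeprazole (all genes -0.08), -0.18 for STW5 0.5 ml/kg (-0.16) and -0.05 for STW5 2 ml/kg (0.04), and between the doses it was 0.22 (0.18). The members' pooled SD within groups had a median of 0.57, from 0.2 to 1.5, and that of all genes a median of 0.51.

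**Figure D2:**
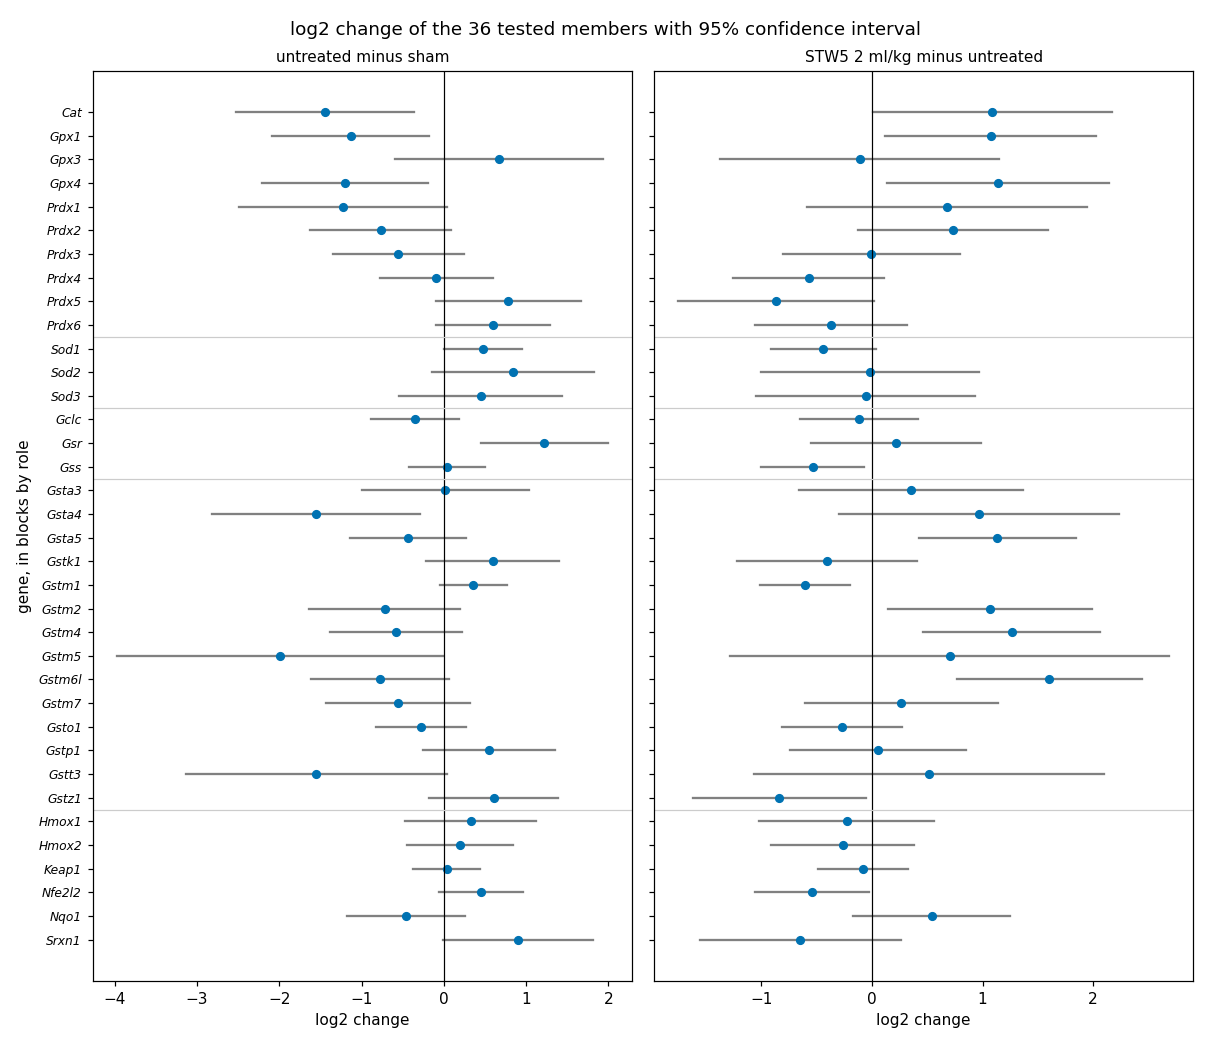
The log2 change (points) and its 95% confidence interval (bars) of the 36 tested members, in blocks by role, for untreated minus sham (left) and STW5 2 ml/kg minus untreated (right). Intervals clear of 0 belong to 7 members on the left and 11 on the right, none of which passed after adjustment.

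Of the 15 peroxide-removing enzymes 10 were tested, and none passed the test in any comparison. Gpx1 reduces hydrogen peroxide with glutathione in the cytosol, Gpx4 reduces lipid peroxides in membranes, Cat breaks hydrogen peroxide down without glutathione, and Prdx2 is the abundant peroxiredoxin of red cells. Gpx1 read 10.98, 10.12, 9.82 and 9.66 in omeprazole blood, 10.94, 10.98, 9.56 and 9.67 in blood of STW5 2 ml/kg and 10.22, 9.0, 9.52 and 9.46 in that of STW5 0.5 ml/kg. Untreated arrays gave 10.14, 10.07, 8.09 and 8.54, against 10.42, 9.97, 10.38 and 10.62 on sham arrays. Untreated replicates 3 and 4 were the lowest of all 20 arrays, and the groups overlapped. For Cat the omeprazole arrays gave 4.95, 4.11, 3.88 and 3.54, those of STW5 2 ml/kg 4.82, 4.97, 3.3 and 3.93 and those of STW5 0.5 ml/kg 4.37, 2.77, 3.82 and 3.25. Without treatment the values were 4.2, 4.15, 1.56 and 2.77, against 4.82, 4.64, 4.2 and 4.79 after sham operation. All 4 untreated values lay below all 4 sham values, though untreated replicate 1 and sham replicate 3 are equal at the precision printed. The change of Cat for untreated minus sham was -1.44 ± 0.52 (SE), with an adjusted p of 0.242 by limma, and for STW5 0.5 ml/kg minus sham it was -1.06 ± 0.52 (SE), with an adjusted p of 0.439 by limma. Without untreated replicate 1 the first of these passed, at -1.79 ± 0.53 (SE, adjusted p = 0.0415) by limma, where 12.2% of all genes did.

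The level of Gpx4 was 9.89, 9.06, 8.58 and 8.16 on the omeprazole arrays, 9.38, 9.53, 8.05 and 8.42 on those of STW5 2 ml/kg and 8.93, 7.56, 8.05 and 8.46 on those of STW5 0.5 ml/kg. The untreated group had 8.39, 8.66, 6.31 and 7.46, against 9.38, 8.88, 8.42 and 8.95 in the sham group. Untreated replicate 3 was again the lowest array. The change of Gpx4 for untreated minus sham was -1.2 ± 0.48 (SE), with an adjusted p of 0.253 by limma, and for omeprazole minus untreated it was 1.22 ± 0.48 (SE), with an adjusted p of 0.212 by limma. A second Gpx4 probe followed the first across the 20 arrays with a correlation of 0.967. Gpx1 differed by 0.93 ± 0.46 (SE), with an adjusted p of 0.337 by limma, for omeprazole minus untreated. Without untreated replicate 2 these changes were -1.52 for Gpx4 and -1.77 for Cat in untreated minus sham, and 1.54 for Gpx4 and 1.22 for Gpx1 in omeprazole minus untreated, all with an adjusted p above the threshold.

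Prdx2 read 10.53, 9.74, 9.63 and 8.98 in omeprazole blood, 10.9, 10.37, 9.37 and 9.62 in blood of STW5 2 ml/kg and 10.0, 8.79, 9.3 and 9.64 in that of STW5 0.5 ml/kg. On the untreated arrays it was 10.08, 9.85, 8.45 and 8.96, against 10.26, 9.58, 10.15 and 10.42 on the sham arrays. The groups overlapped in every comparison. Prdx5, a peroxiredoxin of mitochondria, peroxisomes and cytosol, had another profile. For Prdx5 the omeprazole arrays gave 3.84, 4.38, 3.94 and 4.59, those of STW5 2 ml/kg 3.88, 3.37, 3.89 and 2.7 and those of STW5 0.5 ml/kg 4.18, 4.24, 4.72 and 3.8. Untreated arrays gave 3.52, 5.94, 3.46 and 4.39, against 3.24, 3.52, 3.47 and 3.94 on sham arrays. Its highest value was that of untreated replicate 2, the array with liver transcripts. Of the 10 tested members of this group, 7 were lower and 3 higher in untreated than in sham blood, with a median change of -0.66, and 6 were higher and 4 lower in omeprazole than in untreated blood, with a median of 0.37. Over all 15243 genes, 9477 were lower and 5766 higher in the first comparison, and 8919 higher and 6324 lower in the second. Spike-in scaling moved the median of all genes by 0.56 for untreated minus sham, by 0.075 for omeprazole minus untreated and by -1.02 for STW5 2 ml/kg minus untreated. Under it 5 of these members were lower and 5 higher in untreated than in sham blood, with a median of -0.096, and 6 higher and 4 lower in omeprazole than in untreated blood, with a median of 0.45. Prdx1, also lowest on untreated replicate 3, has a probe that matches another probe of unnamed target at 51 of 55 aligned bases, and the probe of Prdx6 matches another at 46 of 50, so signal of near copies cannot be told apart there.

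**Figure D3:**
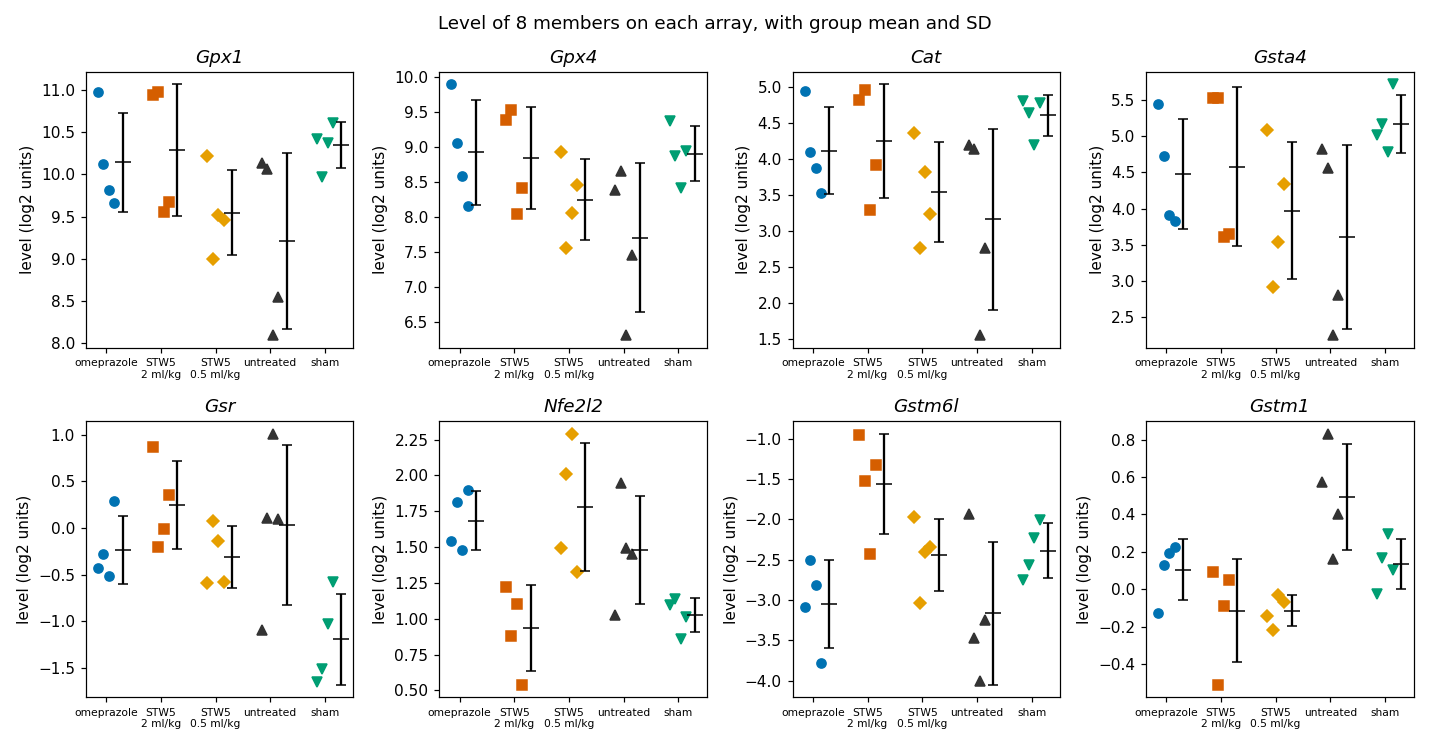
Level of 8 members on each array (points, log2 units) in the 5 groups, with the group mean and SD (bar beside the points, n = 4). Gpx1, Gpx4, Cat and Gsta4 are spread widely among the untreated arrays, of which 2 have the lowest Gpx1 and Gsta4 values of all 20. All omeprazole and STW5 2 ml/kg arrays lie above sham for Gsr, and all STW5 2 ml/kg arrays lie below STW5 0.5 ml/kg for Nfe2l2.

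The same arrays differed in their erythroid markers. The erythroid score, the mean over 13 markers of level minus the marker's mean, ranged over -0.68 to 0.88 on omeprazole arrays, -0.59 to 1.09 on those of STW5 2 ml/kg and -1.12 to 0.57 on those of STW5 0.5 ml/kg. It ranged over -1.75 to 0.74 on untreated arrays, against 0.24 to 1.02 on sham arrays. The neutrophil score, over 13 markers (Ltf, also listed, never rose clearly above background), ranged over -0.31 to 0.95 with omeprazole, -1.19 to 0.44 with STW5 2 ml/kg and 0.01 to 0.93 with STW5 0.5 ml/kg. It ranged over -0.7 to 1.99 in untreated blood, against -1.25 to -0.51 in sham blood, so that all omeprazole and all STW5 0.5 ml/kg arrays lay above all sham arrays. In blood as a whole, fewer cells of a type and less RNA per cell cannot be told apart.

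Each of the 36 members was set against both scores over the 20 arrays, 72 relations in all, with 100000 permutations and Benjamini-Hochberg adjustment. The permutations ran over all 20 arrays without regard to group or slide. These relations were chosen after seeing the data. The level rose with the erythroid score for 15 members and fell with it for 1, Hmox2. It rose with the neutrophil score for 4. All 20 of these kept their sign within slide 1 and within slide 2. For Gsta4 Pearson's r was 0.969 and Spearman's rho 0.932, for Gpx1 0.96 and 0.928, for Prdx2 0.938 and 0.937 and for Cat 0.928 and 0.917, each with a permutation p of 1e-05, the smallest 100000 permutations can give, and an adjusted p of 8e-05. Without untreated replicates 3 and 4, the arrays farthest from the median score, r was 0.949 for Gsta4, 0.931 for Gpx1, 0.918 for Prdx2 and 0.895 for Cat. Within groups, after the group means were taken off, r was 0.967, 0.985, 0.932 and 0.924 for these 4 genes in the same order.

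Gstm5 followed the erythroid score with an r of 0.92, Gpx4 with 0.889 and Nqo1 with 0.874. Further positive relations, from 0.843 for Gstm2 to 0.542 for Gstm6l, were those of Prdx3, Gstt3, Gstm7, Gstm4, Prdx1 and Gsta5, and that of Gstm6l passed by Pearson's r (adjusted p = 0.0482 over permutations) but not by Spearman's rho (adjusted p = 0.101), and with an r of 0.338 without those 2 arrays it rests on them. Hmox2, the constitutive haem oxygenase, ran the other way at -0.844 (rho -0.851), and at -0.721 without untreated replicates 3 and 4. The score itself went with signal: its correlation with the log2 75th percentile of the array was -0.795, and that of the member's level with the same percentile was -0.840 for Gpx1 and -0.775 for Cat. For 4 of the 16 members with a called relation that correlation was larger in size than the one with the score: -0.920 against 0.843 for Gstm2, -0.860 against 0.767 for Gstm4, -0.792 against 0.688 for Gsta5 and -0.680 against 0.542 for Gstm6l. The part of signal strength in these relations was not tested. Under 4 other scalings all 16 relations with the erythroid score kept their sign. The weakest was that of Hmox2, at -0.157 under spike-in scaling, against -0.833 to -0.845 under the others. Prdx2 fell to 0.532 under quantile scaling and to 0.522 with normexp background correction before it. Gsta4 stayed between 0.926 and 0.964.

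**Figure D4:**
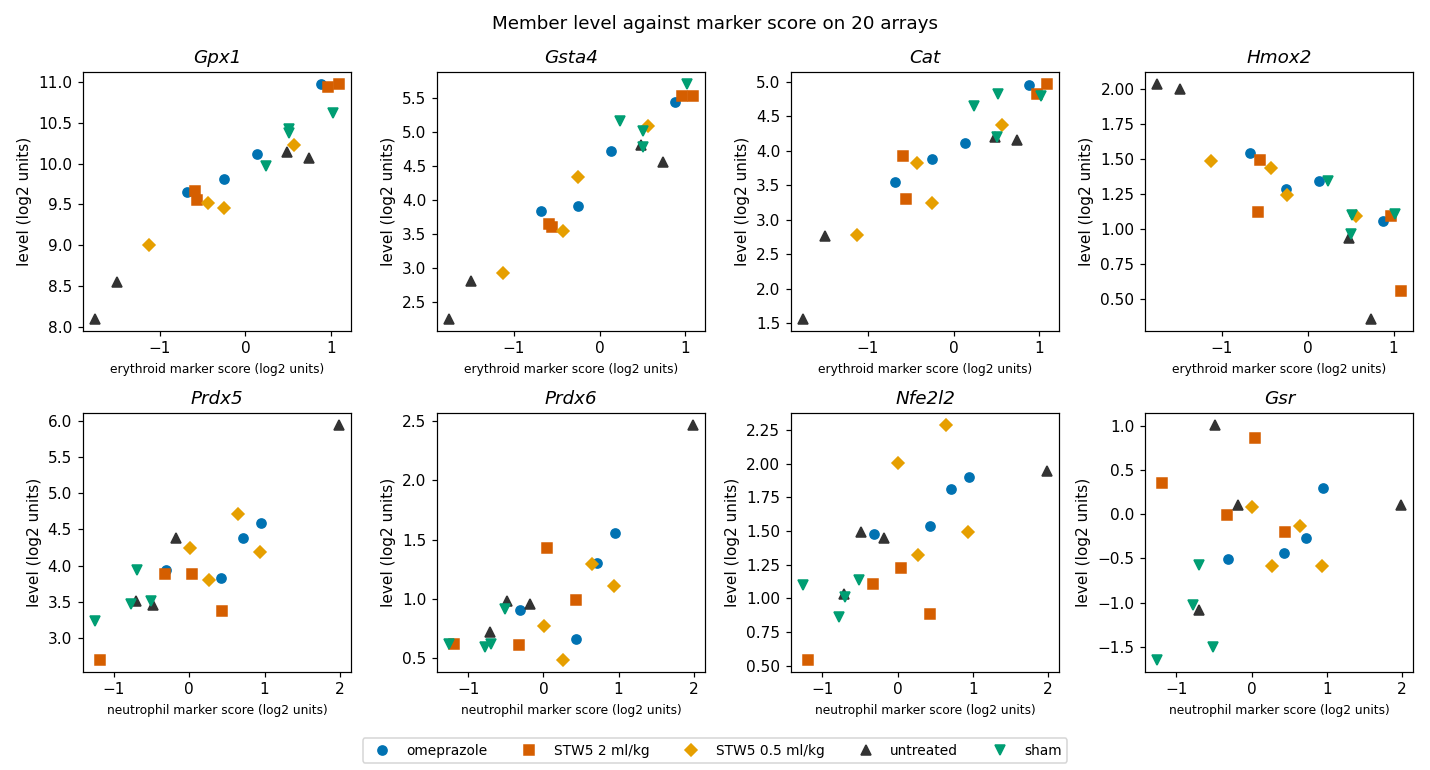
Level of 8 members (log2 units) against the erythroid marker score (top row) or the neutrophil marker score (bottom row), each point 1 array. Gpx1, Gsta4 and Cat rise with the erythroid score at r from 0.928 to 0.969, Hmox2 falls at -0.844, and Prdx5, Prdx6 and Nfe2l2 rise with the neutrophil score, while Gsr at 0.309 has no called relation.

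With the neutrophil score, Prdx5 had an r of 0.835 (rho 0.702), Prdx6 0.785 (rho 0.717), Nfe2l2 0.705 (rho 0.722) and Srxn1 0.56 (rho 0.535). Within groups r was 0.833, 0.848, 0.559 and 0.578 in that order. For Srxn1 it was 0.760 within slide 1 and 0.255 within slide 2. Adjusted permutation p values for Pearson's r of these genes were 0.000131, 0.000309, 0.00216 and 0.0413, in the same order. By Spearman's rho that of Srxn1 was 0.0594, short of the threshold, while Sod1 passed by rho (adjusted p = 0.0318 over permutations) and not by r (0.1). Without untreated replicate 2 and sham replicate 1, the farthest from the median, r was 0.710 for Prdx5, 0.629 for Prdx6, 0.694 for Nfe2l2 and 0.324 for Srxn1, so that the relation of Srxn1 rests on those arrays. In a fit with both scores as covariates, added after seeing the data, the untreated minus sham change of Cat was -0.42, of Gsta4 -0.31 and of Gpx4 -0.25. In that fit Gpx4 at 0.8 ± 0.23 (SE; adjusted p = 0.0306) and Gpx1 at 0.51 ± 0.13 (SE; adjusted p = 0.0182) passed by limma for omeprazole minus untreated, where 12% of all genes did.

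The superoxide dismutases turn superoxide into hydrogen peroxide in the cytosol (Sod1), in mitochondria (Sod2) and outside the cell (Sod3). The level of Sod1 was 4.06, 3.98, 3.87 and 3.94 on the omeprazole arrays, 4.0, 3.8, 3.74 and 3.67 on those of STW5 2 ml/kg and 3.77, 4.06, 4.08 and 3.89 on those of STW5 0.5 ml/kg. Without treatment the values were 3.72, 4.54, 3.86 and 4.85, against 3.65, 4.01, 3.82 and 3.57 after sham operation. All 3 dismutases averaged higher in untreated than in sham blood, with a median change of 0.48 (1.05 under spike-in scaling), without passing. The median of all genes was -0.20 (0.37 under spike-in scaling). For Sod1 untreated replicates 2 and 4 were the highest of all arrays, and the untreated and sham groups overlapped. Sod3 read -3.25, -3.59, -3.42 and -3.57 in omeprazole blood, -2.68, -2.73, -3.21 and -2.39 in blood of STW5 2 ml/kg and -3.16, -4.07, -3.98 and -3.57 in that of STW5 0.5 ml/kg. The untreated group had -2.49, -1.04, -4.55 and -2.71, against -3.45, -3.19, -3.46 and -2.48 in the sham group. Sod3 was dim, and well above background on 16 arrays. Its change for STW5 0.5 ml/kg minus untreated was -1.0 ± 0.47 (SE), with an adjusted p of 0.839 by limma, and without untreated replicate 2 it was -0.45. With untreated replicate 3 left out it passed for omeprazole minus untreated, at -1.38 ± 0.36 (SE; adjusted p = 0.0278) by limma (4.9% of all genes).

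Among the genes of glutathione synthesis and recycling, Gsr, the reductase that restores glutathione, had the largest change from sham of the 3 tested. For Gsr the omeprazole arrays gave -0.43, -0.27, -0.51 and 0.29, those of STW5 2 ml/kg 0.87, -0.21, -0.013 and 0.35 and those of STW5 0.5 ml/kg -0.59, 0.077, -0.13 and -0.58. On the untreated arrays it was -1.09, 0.1, 1.01 and 0.099, against -1.65, -1.51, -1.03 and -0.58 on the sham arrays. All omeprazole and all STW5 2 ml/kg values lay above all sham values, whereas untreated replicate 1 and 2 of the STW5 0.5 ml/kg arrays reached into the sham range. The change was 1.22 ± 0.37 (SE), with an adjusted p of 0.242 by limma, for untreated minus sham and 1.44 ± 0.37 (SE), with an adjusted p of 0.154 by limma, for STW5 2 ml/kg minus sham. It was 0.96 ± 0.37 (SE), with an adjusted p of 0.177 by limma, for omeprazole minus sham and 0.89 ± 0.37 (SE), with an adjusted p of 0.408 by limma, for STW5 0.5 ml/kg minus sham. These 4 comparisons share the sham arrays. With both marker scores as covariates the change of Gsr was 0.45, 1.11, 0.31 and 0.089 in that order, and the second passed by limma (adjusted p = 0.0373, where 15.7% of genes did).

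Without untreated replicate 1, Gsr passed for untreated minus sham at 1.6 ± 0.33 (SE; adjusted p = 0.0122), together with Cat, Gsta4, Gpx1, Srxn1 and Gstm6l, 6 of 36 members where 12.2% of all genes passed. Without untreated replicate 2 it was 1.2 and 0 members passed. Gss, which completes glutathione from its precursor dipeptide, was narrowly spread. The level of Gss was -1.97, -1.99, -1.85 and -1.84 on the omeprazole arrays, -2.49, -2.12, -2.02 and -2.47 on those of STW5 2 ml/kg and -2.19, -1.86, -2.49 and -2.21 on those of STW5 0.5 ml/kg. Untreated arrays gave -1.9, -1.05, -1.94 and -2.05, against -1.78, -1.72, -1.86 and -1.75 on sham arrays. All STW5 2 ml/kg values lay below all sham values, a change of -0.5 ± 0.22 (SE), with an adjusted p of 0.37 by limma, which passed at -0.63 ± 0.2 (SE; adjusted p = 0.0391) with both marker scores as covariates. The change for STW5 0.5 ml/kg minus untreated was -0.45 ± 0.22 (SE), with an adjusted p of 0.851 by limma, or -0.22 without untreated replicate 2. Gclc, the catalytic subunit of the first step of synthesis, was tested and not among the named genes, and Gclm, its modifier subunit, was too dim to test.

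Of the 36 members, 3 transferases had the lowest adjusted p for STW5 2 ml/kg minus untreated, without passing. They were Gstm6l, Gsta5 and Gstm4, each read by a probe with 1 spot on the array. Among the other tested members only Gstz1 had 1 spot, and the rest had 2 or 10. Gstm6l is a gene of the mu class, and the gene named Gsta5 on the array, now named Gsta3, belongs to the alpha class. Gstm6l read -3.08, -2.51, -2.82 and -3.78 in omeprazole blood, -0.96, -1.53, -2.42 and -1.33 in blood of STW5 2 ml/kg and -1.96, -3.04, -2.41 and -2.35 in that of STW5 0.5 ml/kg. Without treatment the values were -1.93, -3.48, -4.01 and -3.24, against -2.75, -2.56, -2.23 and -2.0 after sham operation. Of the STW5 2 ml/kg arrays 3 lay above every untreated array, and the fourth, replicate 3, lay below untreated replicate 1. The change for STW5 2 ml/kg minus untreated was 1.6 ± 0.4 (SE), with an adjusted p of 0.0987 by limma, and for STW5 2 minus 0.5 ml/kg it was 0.88 ± 0.4 (SE), with an adjusted p of 0.173 by limma. For omeprazole minus sham it was -0.66 ± 0.4 (SE), with an adjusted p of 0.549 by limma. Gstm6l was dim, and well above background on 16 arrays. These were 4 arrays of each STW5 dose, 3 untreated, 3 sham and 2 omeprazole arrays, which limits these changes.

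For Gsta5 the omeprazole arrays gave 0.28, 0.42, 0.27 and -0.18, those of STW5 2 ml/kg 1.61, 0.95, 0.39 and 1.13 and those of STW5 0.5 ml/kg 0.42, -0.48, 0.18 and -0.13. The untreated group had 0.086, 0.71, -0.83 and -0.43, against 0.31, -0.41, 0.67 and 0.71 in the sham group. The STW5 2 ml/kg group overlapped with each other group. The change of Gsta5 for STW5 2 ml/kg minus untreated was 1.13 ± 0.34 (SE), with an adjusted p of 0.0987 by limma, for STW5 2 ml/kg minus sham 0.7 ± 0.34 (SE), with an adjusted p of 0.413 by limma, and for STW5 2 minus 0.5 ml/kg 1.02 ± 0.34 (SE), with an adjusted p of 0.102 by limma. Gstm2 is another gene of the mu class. The level of Gstm2 was -0.28, -0.73, -0.9 and -1.57 on the omeprazole arrays, 0.39, 0.32, -0.76 and -0.096 on those of STW5 2 ml/kg and -0.31, -2.0, -1.09 and -0.7 on those of STW5 0.5 ml/kg. On the untreated arrays it was -0.13, -0.69, -2.29 and -1.31, against -0.36, -1.1, -0.15 and 0.074 on the sham arrays. Its change for STW5 2 minus 0.5 ml/kg was 0.99 ± 0.44 (SE), with an adjusted p of 0.166 by limma. Under spike-in scaling, which moved the median of all genes by -1.26 in this comparison, the 3 changes between doses were -0.38 for Gstm6l, -0.24 for Gsta5 and -0.27 for Gstm2.

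Single arrays decided some of these calls. Without untreated replicate 1, Gstm6l at 2.02 ± 0.36 (SE; adjusted p = 0.0163), Gstm4, Gstm2, Gsta5 and Gpx1 passed by limma for STW5 2 ml/kg minus untreated, 5 of 36 members against 20.2% of all genes. Without STW5 2 ml/kg replicate 3, Gstm6l at 1.89 ± 0.41 (SE; adjusted p = 0.0444), Gstm4 and Gsta5 passed (6.73% of all genes), and Gsta5 passed between the doses at 1.23 ± 0.35 (SE; adjusted p = 0.0499) (5.25%). Without untreated replicate 2 none passed, and the changes were 1.5 for Gstm6l, 1.41 for Gsta5 and 1.35 for Gstm4. The erythroid score, with which all 3 genes had a called relation, was -0.59 to 1.09 with STW5 2 ml/kg, against -1.75 to 0.74 in untreated blood, and with both scores as covariates their changes were 0.92, 0.82 and 0.6. In the same fit for STW5 2 ml/kg minus sham, Gstm6l at 1.32 ± 0.29 (SE; adjusted p = 0.00835), Gstm4 at 1.11 ± 0.19 (SE; adjusted p = 0.00381), Gstm2 at 0.81 ± 0.23 (SE; adjusted p = 0.0252) and Gsta5 at 0.85 ± 0.26 (SE; adjusted p = 0.0361) passed by limma. With Gsr and Gss these were 6 of 36 members (16.7%), where 15.7% of all genes passed.

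Gstm4 depended on the probe. Gstm4 read 1.99, 1.56, 1.39 and 0.91 in omeprazole blood, 2.69, 2.46, 1.4 and 1.96 in blood of STW5 2 ml/kg and 1.85, 0.91, 1.13 and 1.35 in that of STW5 0.5 ml/kg. Untreated arrays gave 1.79, 1.11, 0.14 and 0.42, against 1.55, 0.59, 1.9 and 1.74 on sham arrays. This is the brighter probe, whose change for STW5 2 ml/kg minus untreated was 1.26 ± 0.38 (SE), with an adjusted p of 0.0987 by limma. The dimmer probe, which adjoins it, read -1.65, -1.74, -2.16 and -2.38 with STW5 2 ml/kg, against -3.17, -1.01, -1.62 and -2.25 in untreated blood, a change of 0.03 ± 0.41 (SE). Across the 20 arrays the probes had a correlation of -0.307, and that with the erythroid score was 0.767 for the brighter and -0.0746 for the dimmer. Which of them follows the Gstm4 transcript was not tested.

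**Figure D5:**
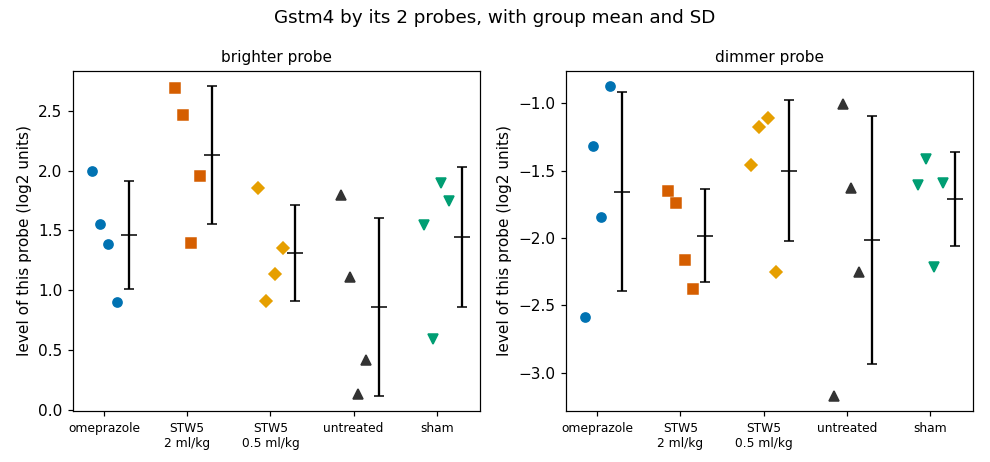
Level of each Gstm4 probe (log2 units, separate axes because levels of different probes are not comparable) on the 4 arrays of each group, with mean and SD. The brighter probe is higher with STW5 2 ml/kg than in untreated blood by 1.26, and the dimmer probe by 0.03.

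Gsta4, an alpha class transferase that detoxifies the lipid peroxidation product hydroxynonenal, was among the brightest members. For Gsta4 the omeprazole arrays gave 5.43, 4.72, 3.91 and 3.83, those of STW5 2 ml/kg 5.53, 5.52, 3.61 and 3.65 and those of STW5 0.5 ml/kg 5.08, 2.92, 3.54 and 4.34. Without treatment the values were 4.81, 4.56, 2.25 and 2.81, against 5.01, 5.16, 4.77 and 5.71 after sham operation. As for Cat, untreated replicates 3 and 4 were lowest. Its change was -1.55 ± 0.61 (SE), with an adjusted p of 0.249 by limma, for untreated minus sham and -1.19 ± 0.61 (SE), with an adjusted p of 0.448 by limma, for STW5 0.5 ml/kg minus sham, and the first of these was -1.87 without untreated replicate 2. Without untreated replicate 1 that change passed, at -1.95 ± 0.62 (SE, adjusted p = 0.0487) by limma, where 12.2% of all genes did. Gstm1, of the mu class, was narrowly spread within groups. The level of Gstm1 was -0.13, 0.13, 0.19 and 0.23 on the omeprazole arrays, 0.094, -0.51, -0.09 and 0.051 on those of STW5 2 ml/kg and -0.14, -0.22, -0.027 and -0.068 on those of STW5 0.5 ml/kg. The untreated group had 0.57, 0.83, 0.16 and 0.41, against -0.027, 0.17, 0.3 and 0.1 in the sham group. All values of both STW5 doses lay below all untreated values. The change for STW5 2 ml/kg minus untreated was -0.61 ± 0.2 (SE), with an adjusted p of 0.106 by limma, and for STW5 0.5 ml/kg minus untreated -0.61 ± 0.2 (SE), with an adjusted p of 0.605 by limma. For omeprazole minus untreated it was -0.39 ± 0.2 (SE), with an adjusted p of 0.352 by limma, with overlapping groups. These 3 comparisons share the untreated arrays, and without untreated replicate 2 the changes were -0.49, -0.49 and -0.27.

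Gstk1 is the mitochondrial and peroxisomal kappa class transferase. Gstk1 read -2.95, -1.81, -2.15 and -1.45 in omeprazole blood, -0.75, -1.82, -1.97 and -2.02 in blood of STW5 2 ml/kg and -2.17, -2.28, -1.49 and -2.16 in that of STW5 0.5 ml/kg. On the untreated arrays it was -2.27, -0.26, -0.98 and -1.43, against -1.86, -2.07, -1.61 and -1.78 on the sham arrays. Untreated replicate 2 was the highest array. The change of Gstk1 for omeprazole minus untreated was -0.85 ± 0.39 (SE), with an adjusted p of 0.294 by limma, and for STW5 0.5 ml/kg minus untreated -0.79 ± 0.39 (SE), with an adjusted p of 0.855 by limma. Without untreated replicate 2 they were -0.53 and -0.46. Gstt3, of the theta class, had a wide spread. For Gstt3 the omeprazole arrays gave 1.43, 0.32, 0.88 and -0.96, those of STW5 2 ml/kg 1.95, 0.54, -0.078 and 0.099 and those of STW5 0.5 ml/kg 1.19, -0.091, 1.45 and 1.39. Untreated arrays gave 1.09, 2.04, -2.68 and -0.012, against 1.86, 1.07, 1.17 and 2.54 on sham arrays. Its second probe, well above background on 15 arrays, followed at a correlation of 0.958, and its change for omeprazole minus sham was -1.24 ± 0.76 (SE), with an adjusted p of 0.551 by limma.

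Gsto1 is an omega class transferase that also reduces dehydroascorbate. The level of Gsto1 was 1.03, 1.12, 1.28 and 1.03 on the omeprazole arrays, 0.059, 0.22, 0.72 and 0.63 on those of STW5 2 ml/kg and 0.96, 1.05, 0.91 and 0.61 on those of STW5 0.5 ml/kg. Without treatment the values were 1.03, 0.25, 0.046 and 1.38, against 0.82, 1.23, 0.93 and 0.85 after sham operation. All STW5 2 ml/kg values lay below all sham values, with a change of -0.55 ± 0.26 (SE), with an adjusted p of 0.401 by limma. Gstp1, the pi class transferase of many blood cells, was bright and its groups overlapped. Gstp1 read 3.68, 4.2, 4.04 and 4.56 in omeprazole blood, 5.53, 3.96, 4.12 and 4.69 in blood of STW5 2 ml/kg and 4.26, 4.74, 4.13 and 4.02 in that of STW5 0.5 ml/kg. The untreated group had 4.3, 4.08, 5.66 and 4.04, against 3.71, 3.39, 4.28 and 4.51 in the sham group. Untreated replicate 3 stood above the other untreated arrays. Of the 14 transferases tested, 9 were lower and 5 higher in untreated than in sham blood, with a median change of -0.50, and 10 were higher and 4 lower with STW5 2 ml/kg than in untreated blood, with a median of 0.43. Over all 15243 genes, 9477 were lower and 5766 higher in the first comparison, and 9168 higher and 6075 lower in the second. Both directions turned under spike-in scaling, with 8 higher and 6 lower for untreated minus sham (median 0.066) and 4 higher and 10 lower for STW5 2 ml/kg minus untreated (median -0.58). The median of all genes turned likewise, from -0.20 to 0.37 and from 0.14 to -0.87.

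In the NRF2 group, Nfe2l2 itself differed most between the STW5 doses. For Nfe2l2 the omeprazole arrays gave 1.54, 1.82, 1.48 and 1.9, those of STW5 2 ml/kg 1.22, 0.88, 1.1 and 0.54 and those of STW5 0.5 ml/kg 1.49, 2.01, 2.29 and 1.33. On the untreated arrays it was 1.03, 1.94, 1.49 and 1.45, against 1.1, 1.13, 0.86 and 1.01 on the sham arrays. All STW5 2 ml/kg values lay below all STW5 0.5 ml/kg values, and all omeprazole and all STW5 0.5 ml/kg values lay above all sham values. The change was -0.84 ± 0.25 (SE), with an adjusted p of 0.083 by limma, for STW5 2 minus 0.5 ml/kg. It was 0.66 ± 0.25 (SE), with an adjusted p of 0.161 by limma, for omeprazole minus sham and 0.75 ± 0.25 (SE), with an adjusted p of 0.329 by limma, for STW5 0.5 ml/kg minus sham. The arrays' 75th percentile was 71.4 to 164 intensity units on STW5 2 ml/kg arrays and 152 to 307 on STW5 0.5 ml/kg arrays, and the level of Nfe2l2 had a correlation of 0.716 with its log2 over the 20 arrays, beside 0.705 with the neutrophil score. The part of signal in the change was not tested. The neutrophil scores of the omeprazole and STW5 0.5 ml/kg groups likewise did not overlap with those of sham, and with both scores as covariates the changes were -0.48, 0.11 and 0.14 in that order, none past the threshold. In the deposited value table, in which the dose columns are exchanged, the change between doses was 0.99. In a fit of omeprazole and sham alone, Nfe2l2 passed at 0.66 ± 0.17 (SE; adjusted p = 0.0367) by limma, with Gstm5 (9.66% of all genes).

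Of the 6 genes of this group, 5 were higher and 1 lower in untreated than in sham blood, with a median change of 0.26, and 1 was higher and 5 lower with STW5 2 ml/kg than in untreated blood, with a median of -0.25. Under spike-in scaling these were 6 higher and 0 lower (median 0.83), and 0 higher and 6 lower (median -1.26). The median of all genes was 0.37 and -0.87 under that scaling, against -0.20 and 0.14 as reported. Keap1, which holds NRF2 back, had the narrowest spread within groups of all 36 members, at 0.2. The level of Keap1 was -0.92, -0.81, -0.82 and -0.6 on the omeprazole arrays, -0.86, -1.5, -0.81 and -1.13 on those of STW5 2 ml/kg and -1.25, -1.51, -1.06 and -1.25 on those of STW5 0.5 ml/kg. Untreated arrays gave -1.04, -1.11, -0.88 and -0.95, against -1.3, -1.05, -0.9 and -0.86 on sham arrays. All omeprazole values lay above all STW5 0.5 ml/kg values, and every other pair of groups overlapped. Omeprazole against STW5 0.5 ml/kg was not among the comparisons tested, and no share of all genes without overlap was counted for it. These groups lie on different slides, so slide and treatment cannot be told apart there. Hmox1, the inducible haem oxygenase and a known NRF2 target, had means of -0.19 ± 0.13 with omeprazole, 0.07 ± 0.39 with STW5 2 ml/kg, -0.073 ± 0.19 with STW5 0.5 ml/kg, 0.3 ± 1.1 untreated and -0.027 ± 0.37 in sham blood (SD, n = 4 each). Hmox1 read -0.063, -0.14, -0.2 and -0.37 in omeprazole blood, 0.5, 0.3, -0.3 and -0.23 in blood of STW5 2 ml/kg and -0.13, 0.025, 0.13 and -0.32 in that of STW5 0.5 ml/kg. Without treatment the values were 0.017, 1.65, -1.0 and 0.53, against -0.13, -0.51, 0.29 and 0.24 after sham operation. The spread was widest in the untreated group, from replicate 3 to replicate 2, the array with liver transcripts. For Hmox2 the omeprazole arrays gave 1.06, 1.34, 1.29 and 1.55, those of STW5 2 ml/kg 1.09, 0.56, 1.49 and 1.12 and those of STW5 0.5 ml/kg 1.09, 1.49, 1.44 and 1.25. The untreated group had 0.94, 0.36, 2.04 and 2.0, against 1.1, 1.34, 0.97 and 1.11 in the sham group. For Hmox2 untreated replicates 3 and 4 were the highest arrays, the reverse of Gpx1 and Cat.

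Beyond the members, a list of 56 further genes of the thioredoxin, glutaredoxin, glutathione, NADPH and iron-handling pathways was counted, 52 of them tested. Sepx1, now Msrb1, a selenoprotein that repairs oxidised methionine, passed for omeprazole minus sham at 1.41 ± 0.35 (SE), with an adjusted p of 0.0219 by limma, with all omeprazole values above all sham values. It was the 1 gene of 52 to pass in that comparison, against 4.72% of all genes, and in the other 7 comparisons 0 of 52 passed. The neutrophil scores of these groups, -0.31 to 0.95 with omeprazole and -1.25 to -0.51 in sham blood, did not overlap either, and their part in this call was not tested. Sepp1, now Selenop, the selenium carrier of plasma made mostly in liver, was 2.01 ± 0.66 (SE), with an adjusted p of 0.242 by limma, for untreated minus sham and -2.27 ± 0.66 (SE), with an adjusted p of 0.0637 by limma, for omeprazole minus untreated, with overlapping groups. Without untreated replicate 2, the array with liver transcripts, these were 1.3 and -1.56, and neither passed. Without untreated replicate 1 both passed by limma, at 2.73 ± 0.59 (SE; adjusted p = 0.0143) and -2.98 ± 0.59 (SE; adjusted p = 0.00302), where 12.2% and 7.66% of all genes did, and without untreated replicate 3 the second did, at -2.72 ± 0.68 (SE; adjusted p = 0.0211) (4.9%). Bach1, a repressor of Hmox1, was -1.15 ± 0.37 (SE), with an adjusted p of 0.242 by limma, for untreated minus sham, with all untreated values below all sham values. Glrx5, a mitochondrial glutaredoxin of iron-sulphur cluster assembly, was -1.22 ± 0.41 (SE), with an adjusted p of 0.242 by limma, and its groups did not overlap either. Slc7a11, which imports cystine for glutathione synthesis, was 1.18 ± 0.32 (SE), with an adjusted p of 0.0987 by limma, for STW5 2 ml/kg minus untreated. Nnt, which makes mitochondrial NADPH, was -0.95 ± 0.29 (SE), with an adjusted p of 0.0993 by limma, in the same comparison. Without untreated replicate 1, Glrx5 passed by limma at -1.48 ± 0.42 (SE; adjusted p = 0.0365), and for STW5 2 ml/kg minus untreated Slc7a11 at 1.42 ± 0.32 (SE; adjusted p = 0.0167) and Nnt at -1.05 ± 0.31 (SE; adjusted p = 0.0267) did, where 20.2% of all genes passed. With any 1 of the other 3 untreated arrays left out, none of these 3 passed.

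The remaining genes among the 3 with the smallest p of a comparison are given as log2 change and SE, and on all arrays none of these passed by limma. For omeprazole minus untreated, Sesn1, a sestrin, was 1.06 ± 0.37 and Ggt5, of the gamma-glutamyltransferase family, 1.35 ± 0.47. Ggt5 passed without untreated replicate 2, at 1.85 ± 0.42 (SE; adjusted p = 0.0133) by limma (3.85% of all genes), and Sesn1 without untreated replicate 1, at 1.45 ± 0.33 (SE; adjusted p = 0.0101) (7.66%). For STW5 0.5 ml/kg minus untreated, Sepp1 was -1.74 ± 0.66, Glrx3 0.69 ± 0.31 and Osgin1 0.68 ± 0.37, and for STW5 0.5 ml/kg minus sham, Idh1 was 1.13 ± 0.34, Sepx1 1.18 ± 0.35 and Bach1 -1.02 ± 0.37. For STW5 2 ml/kg minus sham, Abcc4, an efflux transporter, was 1.03 ± 0.33, Ggt1 1.43 ± 0.51 and Sesn1 -0.97 ± 0.37. Of these, Ggt1 was well above background on 4 arrays of STW5 2 ml/kg and 1 sham array, and Sesn1 on 2 arrays of STW5 2 ml/kg and 4 sham arrays, which limits both values. For STW5 2 ml/kg minus untreated, Idh1 was -0.9 ± 0.34, and without untreated replicate 1 it passed at -1.09 ± 0.35 (SE; adjusted p = 0.0364) by limma (20.2%). Between the doses Slc7a11 was 0.94 ± 0.32 and Ftl, the ferritin light chain now named Ftl1, 1.14 ± 0.36. Idh1, a source of NADPH, was -1.27 ± 0.34 (SE), with an adjusted p of 0.0727 by limma, for STW5 2 minus 0.5 ml/kg, though well above background on 1 array of 2 ml/kg, 4 arrays of 0.5 ml/kg, 4 untreated arrays and 2 sham arrays.

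The count of members past the threshold, 0 in each comparison as reported, moved with arrays and settings that also moved the count over all genes. For untreated minus sham it was 8 with array weights (15.3% of all genes), and 15 with untreated replicates 1 and 2 both left out (29%). For omeprazole minus untreated it was 1 under quantile scaling (Gpx4; 4.43%), 2 after normexp background correction with quantile scaling (Gpx1 and Gpx4; 4.07%) and 2 with array weights (the same 2 genes; 15%). With untreated replicates 1 and 2 left out it was 5 there (Nqo1, Cat, Gpx1, Gpx4 and Gstm5; 13.5%), and 12 for STW5 2 ml/kg minus untreated (30.1%). Under spike-in scaling it was 15 for STW5 2 ml/kg minus untreated (24.3%) and 17 for STW5 2 minus 0.5 ml/kg (50.8%), all of them lower with 2 ml/kg. These 15 share no gene with the 12 called without untreated replicates 1 and 2, which were all higher with STW5 2 ml/kg except Hmox2. Between the doses the count was also 1, Nfe2l2, after normexp with quantile scaling (1.34%) and 8 without the filter on dim probes (18.6%), of which 6 are probes too dim to test otherwise. Array weights gave 6 for omeprazole minus sham (26.4%) and 1, Gsr, for STW5 2 ml/kg minus sham (1.69%).

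The 14 members not tested were dim. Gclm, Gpx5, Gsta2, Gstm6, Gsto2, Gstt1 and Gstt4 were well above background on 0 arrays. Gpx2, Gpx6, Gstt2 and Msra were well above it on 3 arrays each, and Gpx7, Gpx8 and Gstm3 on 1 array each. They had no test.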

How the data were processed

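Blood RNA (100 ng) was labelled with Cy3 and hybridised to Agilent arrays. Per the file headers, the scanner files hold spot intensities made with Agilent Feature Extraction 10.7.3.1, whose processed intensity is background-corrected. The series also has values that the authors deposited in a single table, a ratio per probe with per-column medians of exactly 1. Set against the scanner files by correlation, 12 columns followed their own array and 8, those of STW5, an array of the other dose.

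Outlier-flagged spots and control spots were left out and the spots of a probe averaged, giving 30367 probes from 58717 spots. Each array was scaled to its 75th percentile and put on a log2 scale. A gene was read by its brightest probe and tested where at least 4 of 20 arrays were well above background (on at least 0.5 of the probe's spots). Group means were fitted with limma 3.58.1 (lmFit, eBayes; R 4.3.3) on all 20 arrays with 15 residual degrees of freedom, with two-sided tests and Benjamini-Hochberg adjustment across the 15243 genes, at a threshold of 0.05. The code was tested on simulated data. Probe accessions gave a current symbol for 18005 probes.

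Values are given for the 4 members with the smallest p in each comparison, the 8 brightest, Nfe2l2, Keap1 and both haem oxygenases, and further pathway genes for the 3 with the smallest p or those that passed. Members and lists were chosen with earlier results of these data known. Replicate numbers are shared across groups. As a check for pairing, the deviations of every same-numbered pair were asked to have a correlation over 0.1. This held for STW5 2 ml/kg minus untreated (0.188 to 0.488) and for no other comparison, though for omeprazole minus untreated all 4 were positive (0.0302 to 0.460). The fit reported was unpaired in every comparison, that one included, so its SE and p-values leave such pairing out. Replicate number entered only as a block among the alternatives, where 0 members passed. The alternatives tried were other scalings, background correction, filters, probe rules, array weights, a replicate block, the deposited table, only the groups compared and leaving out each array. Marker scores as covariates, untreated replicates 1 and 2 left out together and the relations to marker scores were chosen after seeing the data.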

Additional observations from a re-analysis of the deposited data

Results flagged for a closer look

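In 5 of 115 sets of 1 member in 1 group of 4 arrays, 1 array lay far from the other 3 by Dixon's criterion, which chance meets in about 1 of 20 groups. Gstk1 read -1.49 on STW5 0.5 ml/kg replicate 3, where the others read -2.28 to -2.16, and -0.75 on STW5 2 ml/kg replicate 1, where the others read -2.02 to -1.82. Gss read -1.05 on untreated replicate 2, the array with liver transcripts, and -2.05 to -1.90 on the others. Gstt3 read -0.091 on STW5 0.5 ml/kg replicate 2 and 1.19 to 1.45 on the others. Gstp1 read 5.66 on untreated replicate 3 and 4.04 to 4.30 on the others.

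Some members too dim to test were well above background on a few arrays and on no sham array. Gpx2, a peroxidase known from gut epithelium, was so on 3 arrays, highest on untreated replicate 2 at -2.60. Gpx6 was so on 3 arrays, and Gstt2 on 3. Gpx7 was so on 1 array, untreated replicate 2, at -0.41. Gpx8 was so on 1 array and Gstm3 on 1.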

How the results depend on the processing

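The 32 changes named for single members had 650 values under 33 alternative settings. Of these 596 kept direction and stayed short of the threshold, 43 passed it and 11 turned direction. The causes were not tested. In the deposited table, whose STW5 columns follow the other dose, Nfe2l2 was -0.11 for STW5 0.5 ml/kg minus sham, Gsto1 0.050 and Gsta5 -0.20 for STW5 2 ml/kg minus sham, and between doses Nfe2l2 was 0.99, Gsta5 -0.87, Gstm2 -0.84 and Gstm6l -0.73. Under spike-in scaling, between doses, Gsta5 was -0.24, Gstm2 -0.27 and Gstm6l -0.38, with 0 members higher and 36 lower, against 22 and 14 as reported. With marker scores as covariates, Gstm6l was 0.32 for omeprazole minus sham.

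Members past the threshold of 36, 0 as reported, were as follows, with the share of all genes that passed in parentheses. For untreated minus sham there were 8 with array weights (15.3%), 15 without untreated replicates 1 and 2 (29%), and 0 to 6 with single arrays left out, the 6 without untreated replicate 1 (12.2%). For omeprazole minus untreated there were 2 with normexp (4.07%), 1 with quantile scaling (4.43%), 2 with array weights (15%), 5 without untreated replicates 1 and 2 (13.5%), 2 with covariates (12%), and 0 to 1 with single arrays left out. For STW5 2 ml/kg minus untreated there were 15 with spike-in scaling (24.3%), 12 without untreated replicates 1 and 2 (30.1%), and 0 to 5 with single arrays left out, the 5 without untreated replicate 1 (20.2%). The 15 were all lower with STW5 2 ml/kg, and the 12 were all higher except Hmox2. For omeprazole minus sham there were 2 with only those groups fitted (9.66%) and 6 with array weights (26.4%). For STW5 2 ml/kg minus sham there were 1 with array weights (1.69%) and 6 with covariates (15.7%). Between doses there were 1 with normexp (1.34%), 17 with spike-in scaling (50.8%, all lower with 2 ml/kg), 8 without the filter (18.6%), and 0 to 1 with single arrays left out. For STW5 0.5 ml/kg minus untreated and minus sham 0 passed in every setting.

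Over all genes the calls ranged over settings from 0 to 4423 for untreated minus sham (1 as reported), 366 to 2281 for omeprazole minus untreated (636), 350 to 4030 for omeprazole minus sham (720), 0 to 4587 for STW5 2 ml/kg minus untreated (0), 0 to 2396 for STW5 2 ml/kg minus sham (0), 0 to 5 and 0 to 380 for STW5 0.5 ml/kg minus untreated and minus sham (0 each), and 0 to 7743 between doses (0). With the replicate block 0 members passed in every comparison, and over all genes it gave 535 calls between doses. Slide as a random block could not be fitted, because every group lies on 1 slide. Dim members are limited by signal over background.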
